A study of Mus musculus with 6 samples.

Results

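The dystrophin-glycoprotein complex genes examined here were Dmd (dystrophin), Utrn (utrophin), Dag1 (dystroglycan), Sgca, Sgcb, and Sgcd (α-, β-, and δ-sarcoglycan), Sspn (sarcospan), and Dtna (α-dystrobrevin). They were picked by gene symbol and are 8 of the 56923 genes listed in the count table. All 8 were among the 17212 genes with enough counts to be compared between the genotypes, and each had at least 966 counts in every mouse. None of the 8 passed the threshold of the test between genotypes, and the values below describe how far each gene differed and how precisely that difference was measured.

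The complex spans the sarcolemma, the plasma membrane of a muscle cell. On the inside, dystrophin ties it to cortical actin. In the membrane, dystroglycan binds dystrophin through its β-subunit and laminin of the basement membrane through its glycosylated α-subunit, and the sarcoglycans and sarcospan flank it. Dystrobrevin and the syntrophins bind dystrophin from the cytoplasm and carry signaling proteins. Loss of dystrophin or of a sarcoglycan makes the sarcolemma fragile and is known to cause muscular dystrophy with cardiomyopathy.

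The mRNA-Seq libraries came from the left ventricles (LVs) of 6 mice at 12 weeks of age, 3 of them WT and 3 heterozygous for Lztr1 R409C (Lztr1 R409C/+, called mutant mice from here on), and each mouse gave 1 library. Lztr1 encodes a substrate adaptor of a ubiquitin ligase for RAS-family proteins. Mutant mice carry 1 germline allele with the p.R409C missense change, made by genome editing with a guide RNA and a donor strand, so every cell type of the heart carries it. Both genotypes share the C57BL/6J background, the mice were perfused with cold PBS before the LVs were taken, and the study used male mice for its phenotypes. The sample labels name the tissue only as heart and the genotype only as mutant or WT. The chamber comes from the study's methods, and the allele from the account of the mRNA-Seq in its results. No drug or other treatment is given for these mice. Neither the labels nor the methods give a batch, a litter, or a sequencing date.

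Total counts ranged from 66130887 to 72641124 per mouse. CPM denotes counts of a gene scaled to a common library total by TMM, and 3 counts corresponded to between 0.0317 and 0.0541 CPM, so counting error was small for every member. The share of counts from mitochondrially encoded genes was 13.8% in WT replicate 3, 45.4% in mutant replicate 1, and between 29.7% and 37.3% in the other 4 mice. The libraries had the defining genes of heart muscle, since the 10 cardiomyocyte markers summed to between 32711 and 47372 CPM. Of the 5 atrial markers, Myl7, Sln, and Bmp10 had too few counts to be tested, Myl4 had at most 0.570 CPM, and Nppa, a natriuretic peptide that stressed ventricle also makes, had 37.7 to 106.5 CPM (log2 fold change 0.53, adjusted p = 0.643, edgeR). Of the 7 skeletal muscle markers, the fast myosins Myh1, Myh2, and Myh4 had too few counts to be tested and Mylpf, Tnnt3, and Tnni2 had at most 0.993 CPM, whereas Acta1, the skeletal α-actin that cardiac muscle also makes, had 165.4 to 316.9 CPM (log2 fold change -0.58, unadjusted p = 0.0172 and adjusted p = 0.483, edgeR). Lztr1 itself had 24.2, 24.2, and 22.2 CPM in WT and 23.9, 27.9, and 25.3 CPM in mutant mice, and a missense allele leaves the level of its own transcript without use as a check of the labels.

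The start regions of dystrophin and of the 3 sarcoglycans are shown because dystrophin and the sarcoglycans are the members best known from muscular dystrophy and these 4 genes had 4 of the 5 most negative fold changes of the 8 genes. Each sequence is the 250 bases before the start of the Ensembl canonical transcript, read 5′ to 3′ on the strand of the gene from the GRCm39 genome with the GENCODE M39 annotation. Capitals mark E-boxes (CANNTG, a palindrome in its fixed letters, searched on both strands), the motif bound by basic helix-loop-helix factors. The Dmd region is chrX:81992224-81992473 on the + strand. The Sgca region is chr11:94864290-94864539 on the - strand, and 26 of its bases lie in annotated exons. The Sgcb region is chr5:73805134-73805383 on the - strand, and the Sgcd region is chr11:47270350-47270599 on the - strand.
Dmd: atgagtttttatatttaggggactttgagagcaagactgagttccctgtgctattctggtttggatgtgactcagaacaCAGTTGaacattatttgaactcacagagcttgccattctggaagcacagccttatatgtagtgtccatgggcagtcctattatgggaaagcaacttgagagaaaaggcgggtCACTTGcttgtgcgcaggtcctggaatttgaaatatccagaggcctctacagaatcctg
Sgca: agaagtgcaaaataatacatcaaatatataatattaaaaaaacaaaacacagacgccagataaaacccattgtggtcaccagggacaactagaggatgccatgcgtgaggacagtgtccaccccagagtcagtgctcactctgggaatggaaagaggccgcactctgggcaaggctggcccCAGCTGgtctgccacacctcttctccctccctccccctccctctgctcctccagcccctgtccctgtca
Sgcb: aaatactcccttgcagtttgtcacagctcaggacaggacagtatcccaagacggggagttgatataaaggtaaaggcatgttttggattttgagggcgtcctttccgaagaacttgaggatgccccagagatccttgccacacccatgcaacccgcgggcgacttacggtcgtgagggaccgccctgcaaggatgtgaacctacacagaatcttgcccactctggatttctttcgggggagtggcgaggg
Sgcd: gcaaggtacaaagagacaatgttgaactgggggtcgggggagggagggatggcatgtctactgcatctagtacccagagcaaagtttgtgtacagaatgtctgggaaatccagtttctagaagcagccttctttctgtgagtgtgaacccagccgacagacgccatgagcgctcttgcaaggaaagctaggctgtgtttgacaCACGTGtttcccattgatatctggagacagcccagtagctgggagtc

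Dmd had 2 E-boxes in this window, Sgca and Sgcd had 1 each, and Sgcb had 0. Among the start regions of 21770 genes of the same length, 64.8% held at least 1 E-box, with a median of 1, so these numbers are common ones. A GC box (GGGCGG, both strands) was present in the Sgcb window and absent from those of Dmd, Sgca, and Sgcd, against 36.3% of all start regions. The letters TATAAA, on either strand, were present in the windows of Dmd and Sgcb, against 11.9% of all start regions. The regions of Utrn, Dag1, Sspn, and Dtna, which are not shown, held 0, 1, 1, and 3 E-boxes, respectively. Among these regions, Dag1 held 2 GC boxes and the others 0, and TATAAA was absent from all of them. A match is only a run of letters, and these libraries do not measure binding to it.

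Over the 8 genes, 7 had a lower and 1 a higher mean level in mutant mice, against 48.6% of all genes tested with a lower value. The median log2 fold change was -0.22 for the 8 genes and 0.012 for all genes tested. 0 of the 8 passed a Benjamini-Hochberg adjusted p of 0.05 in the quasi-likelihood test of edgeR, a threshold that 0.0407% of all genes passed in either direction. At an unadjusted p of 0.05 in the same edgeR test, 1 of the 8 (Sgcb) was lower, against 2.86% of all genes, and 0 were higher, against 5.77%. DESeq2's Wald test also passed 0 of the 8 after adjustment, against 143 higher and 15 lower of all 17212 genes. At an unadjusted p of 0.05 it passed 1 of the 8 (Sgcb, lower), against 1034 higher and 550 lower of all genes. The exact test of edgeR passed 0 of the 8 at either threshold. Over all genes it passed 124 higher and 13 lower after adjustment, and 1069 higher and 473 lower at an unadjusted p of 0.05. Every mutant mouse lay below every WT mouse for 1 of the 8 genes (Sgcb), against 7.23% of all genes, and above every WT mouse for 0 of the 8, against 8.3%. Without WT replicate 3 and mutant replicate 1, the libraries with the lowest and the highest mitochondrial share, 8 of the 8 were lower (median -0.18), against 49.1% of all genes (median 0.0083), 2 of them (Sgca and Sgcb) passed an unadjusted p of 0.05, against 2.58% of all genes in that direction, and 0 passed after adjustment in edgeR's test. The count at an unadjusted p of 0.05 fell to 0 without WT replicate 1, without WT replicate 2, with the replicate number as a block, and with library size, upper quartile, or cardiomyocyte marker scaling. In these fits, the lower genes at this p numbered between 51 of 17212 (cardiomyocyte marker scaling) and 372 of 17899 (without WT replicate 1). In whole LV tissue, fewer cells of a type and less RNA per cell cannot be told apart. Because the 8 levels were measured in the same 6 libraries, they are not independent of each other.

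**Figure D1:**
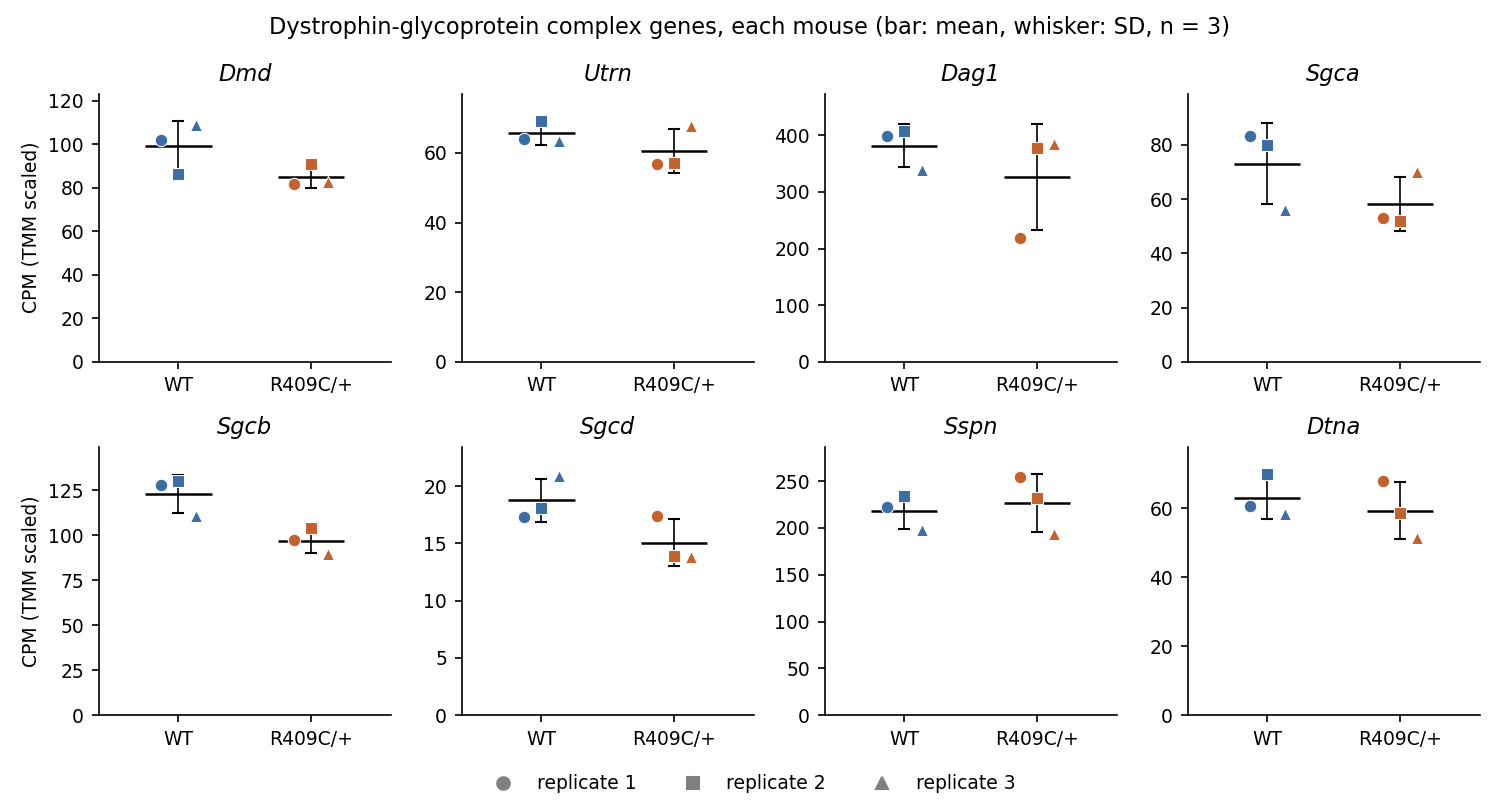
CPM after TMM scaling (vertical axis, from 0) of each of the 8 genes in each WT (blue) and Lztr1 R409C/+ (orange) mouse, with marker shapes for the replicate numbers, bars for the mean, and whiskers for the SD (n = 3 per genotype). Sgcb is the single gene whose groups are apart, and the widest spread is in Dag1, where Lztr1 R409C/+ replicate 1 had 218.2 CPM and the other 5 mice between 339.1 and 407.9 CPM.

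The actin-binding members were dystrophin and utrophin. Dmd (ENSMUSG00000045103.20, chromosome X of GRCm39, 81992474 to 84249747, + strand) encodes the rod-shaped protein that anchors the complex to the cytoskeleton. It had 101.9, 86.3, and 108.8 CPM in WT replicates 1, 2, and 3 and 81.6, 91.0, and 82.4 CPM in mutant replicates 1, 2, and 3. The groups overlapped, since WT replicate 2 lay below mutant replicate 2. The WT mean was 99.0 ± 11.5 CPM and the mutant mean 85.0 ± 5.21 CPM (SD, n = 3 each). This is a log2 fold change of -0.22 (standard error 0.15, 95% interval -0.56 to 0.12) with an adjusted p of 0.737, where p-values of single genes come from edgeR's quasi-likelihood fit and were adjusted over all genes tested by Benjamini and Hochberg's method. On a linear scale, the interval ran from 0.680-fold to 1.08-fold of WT. The log2 fold change was -0.40 with scaling to library size only, -0.092 with a correction for gene length, and -0.12 without both WT replicate 3 and mutant replicate 1.

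Utrn (ENSMUSG00000019820.12, chromosome 10, 12257537 to 12745265, - strand) encodes the paralog of dystrophin that is more widely expressed and can occupy its place at the membrane. Its levels were 64.1, 69.3, and 63.3 CPM in WT and 56.7, 57.2, and 67.8 CPM in mutant mice, in replicate order. Mutant replicates 1 and 2 were below all WT mice, and replicate 3 was above 2 of them. The log2 fold change was -0.11 (standard error 0.15, 95% interval -0.44 to 0.21, adjusted p = 0.868, edgeR). It was -0.20 without mutant replicate 3, -0.076 without WT replicate 2, and -0.25 with scaling to library size only. With a correction for gene length it was -0.0085, above the median of all genes of -0.038. Within each mouse, the log2 ratio of Utrn to Dmd counts was -0.67, -0.32, and -0.78 in WT and -0.53, -0.67, and -0.28 in mutant mice, which overlapped. The mean ratio differed by 0.097 on the log2 scale (two-sided exact permutation test, p = 0.6, with a lower limit of 0.1 for 3 mice per group), and its sign turned when mutant replicate 3 was left out (-0.0095).

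Dag1 (ENSMUSG00000039952.16, chromosome 9, 108081833 to 108152333, - strand) encodes the precursor of α- and β-dystroglycan, the laminin receptor of the complex. It had the highest mean level per length of the 8 genes, on the scales given further on, with 397.9, 407.9, and 339.1 CPM in WT and 218.2, 376.6, and 384.6 CPM in mutant mice. Mutant replicate 1, the library with the highest mitochondrial share, stood far below the other 5 mice, whereas replicates 2 and 3 lay within the WT range. The log2 fold change was -0.23 (standard error 0.21, 95% interval -0.69 to 0.24, adjusted p = 0.812, edgeR), the widest interval among the 8 genes. Without mutant replicate 1 it was -0.011, and without mutant replicate 3 it was -0.36. In mutant replicate 1, Dag1 made up 25.8% of the summed CPM of the 8 genes, against 35.5% to 40.3% in the other 5.

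Among the sarcoglycans, the group of transmembrane proteins that stabilizes the binding of dystroglycan to dystrophin, all 3 members had lower means in mutant mice, by 19.9% to 21.1% in the fit. Sgcb (ENSMUSG00000029156.12, chromosome 5, 73790086 to 73805133, - strand) had 127.8, 130.2, and 110.8 CPM in WT and 97.3, 104.0, and 89.8 CPM in mutant mice. The highest mutant mouse was below the lowest WT mouse, a gap that no other of the 8 genes had. The WT mean was 122.9 ± 10.6 CPM, against 97.0 ± 7.10 CPM in mutant mice (SD, n = 3 each). The log2 fold change was -0.34 (standard error 0.15, 95% interval -0.67 to -0.011), a difference of -21.1%. In the edgeR fit its unadjusted p was 0.0438 and its adjusted p 0.568, so it did not pass the threshold once all genes were counted. Its direction was the same in 19 of 19 alternatives, and the log2 fold change was between -0.41 and -0.29 with each mouse left out in turn, whereas the unadjusted call was lost in 10 of the 19. In edgeR's quasi-likelihood fit across all genes, the unadjusted p was 0.134 without WT replicate 1, 0.144 without WT replicate 2, 0.0503 without mutant replicate 1, 0.10 without mutant replicate 3, 0.0667 with the replicate block, and 0.0691 with upper quartile scaling, where the log2 fold changes were -0.31, -0.30, -0.35, -0.29, -0.34, and -0.30, respectively. With cardiomyocyte marker scaling, where the median of all genes was 0.22, the quasi-likelihood p was 0.549 and the log2 fold change -0.12. With library size only, where that median was -0.14, they were 0.144 and -0.48. With at least 10 counts in every mouse they were 0.0511 and -0.33. The exact test of edgeR gave a p of 0.0516 at -0.34.

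Sgca (ENSMUSG00000001508.16, chromosome 11, 94853605 to 94867273, - strand) encodes the sarcoglycan that is largely specific to striated muscle. Its levels were 83.4, 79.9, and 55.9 CPM in WT and 53.0, 51.8, and 69.9 CPM in mutant mice. WT replicate 3, the library with the lowest mitochondrial share, lay close to the lower mutant mice, and mutant replicate 3 lay above it. Its log2 fold change was -0.33 (standard error 0.19, 95% interval -0.74 to 0.089, adjusted p = 0.669, edgeR), and the fits that each left out 1 mouse gave -0.49 to -0.22. The log2 ratio of Sgca to Dmd counts averaged -0.45 ± 0.45 in WT and -0.56 ± 0.29 in mutant mice (SD, n = 3 each, difference -0.10, two-sided exact permutation test, p = 0.9). Leaving out WT replicate 2 turned this difference to 0.068, and leaving out mutant replicate 2 turned it to 0.024.

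Sgcd (ENSMUSG00000020354.16, chromosome 11, 46787080 to 47879796, - strand) encodes the sarcoglycan that pairs with β-sarcoglycan in assembly. It had 17.3, 18.1, and 20.9 CPM in WT and 17.4, 13.9, and 13.8 CPM in mutant mice. Mutant replicates 2 and 3 were below all WT mice, and replicate 1 was just above WT replicate 1. The log2 fold change was -0.32 (standard error 0.17, 95% interval -0.69 to 0.051, adjusted p = 0.633, edgeR).

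Sspn (ENSMUSG00000030255.14, chromosome 6, 145877367 to 145910950, + strand) encodes sarcospan, a tetraspan-like protein that associates with the sarcoglycans. It was the single member with a higher mean in mutant mice. Its levels were 222.7, 233.7, and 197.5 CPM in WT and 254.8, 231.5, and 193.9 CPM in mutant mice. The mutant mice held both the highest and the lowest value. With all 6 mice, the log2 fold change was 0.057 (standard error 0.16, 95% interval -0.30 to 0.41, adjusted p = 0.950, edgeR). Its sign was negative with scaling to library size only (-0.10, above the median of all genes of -0.14). It was also negative with a correction for gene length (-0.016, above that median of -0.038), without WT replicate 3 (-0.012), and without mutant replicate 1 (-0.043).

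Dtna (ENSMUSG00000024302.17, chromosome 18, 23548183 to 23793477, + strand) encodes α-dystrobrevin, which binds dystrophin directly and recruits syntrophins. Its levels were 60.6, 69.8, and 58.2 CPM in WT and 67.7, 58.7, and 51.3 CPM in mutant mice, and the groups overlapped widely. Its log2 fold change was -0.086 (standard error 0.16, 95% interval -0.43 to 0.26, adjusted p = 0.918, edgeR), and it was 0.0073 without mutant replicate 3 and 0.029 with a correction for gene length. The log2 ratio of Dtna to Dmd counts was higher by 0.12 in mutant mice (two-sided exact permutation test, p = 0.5), with overlap, and the difference was -0.00047 without WT replicate 3 and -0.0051 without mutant replicate 1.

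**Figure D2:**
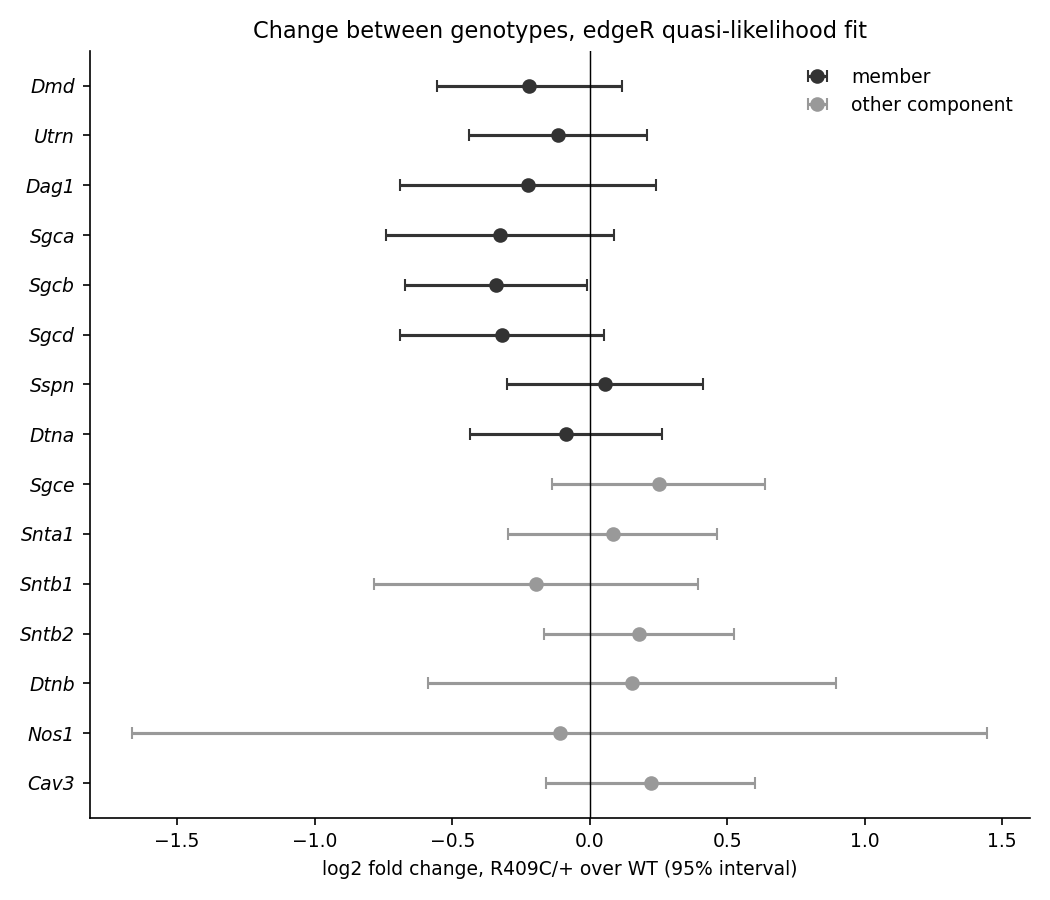
Log2 fold change of Lztr1 R409C/+ over WT mice (horizontal axis, points) with 95% intervals (whiskers) from edgeR's quasi-likelihood fit for the 8 genes (black) and 7 tested genes of other complex components (gray). Only the interval of Sgcb (-0.67 to -0.011) lies wholly on one side of 0, and the interval of Nos1 is the widest.

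The lowest of the 6 values came from a mutant mouse for all 8 genes, which was replicate 1 for 3 genes (Dmd, Utrn, and Dag1), replicate 2 for 1 (Sgca), and replicate 3 for 4 (Sgcb, Sgcd, Sspn, and Dtna). The highest value came from a WT mouse for 7 genes and from mutant replicate 1 for Sspn. The low values were thus spread over the 3 mutant mice. How often the lowest or highest value came from either genotype among all genes was not counted. The summed level of the 8 genes was 1076, 1095, and 954 CPM in WT and 847, 985, and 953 CPM in mutant mice, and the groups overlapped.

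Levels were compared between genes as CPM per kilobase (kb). The length of a gene depends on which transcripts are counted, and the order of the 8 genes depended on it. Over all annotated exons, the WT means ran from 54.8 ± 5.34 CPM per kb for Dag1, through 39.8 ± 3.39 for Sspn, 23.4 ± 2.01 for Sgcb, 22.3 ± 4.56 for Sgca, 4.12 ± 0.48 for Dmd, 3.62 ± 0.18 for Utrn, and 3.01 ± 0.29 for Dtna, to 1.58 ± 0.16 for Sgcd (SD, n = 3). In this order Sgcb and Sgca overlapped across the WT mice, as did Dmd and Utrn, and the other neighbors were apart. Over the canonical transcript alone, the WT order was Dag1 (65.5 ± 6.38), Sspn (49.0 ± 4.18), Sgca (48.8 ± 9.99), Sgcb (32.4 ± 2.79), Dtna (12.9 ± 1.25), Sgcd (11.6 ± 1.17), Dmd (6.62 ± 0.77), and Utrn (4.84 ± 0.24 CPM per kb, SD, n = 3), with overlap between Sspn and Sgca and between Dtna and Sgcd. Sgcd and Dtna moved up by 2 places and Dmd and Utrn moved down by 2, and for Sgcd the annotated exons span 11902 bases and the canonical transcript 1617. On both scales Dag1 and Sspn had the highest WT means, and Sgca and Sgcb were above Dmd in every WT mouse. In mutant mice the order of the means was the same on each scale, but Dag1 and Sspn overlapped, since replicate 1 was the lowest mouse for Dag1 and the highest for Sspn. Over all annotated exons, Utrn and Dtna, which were apart in WT mice, also overlapped in mutant mice.

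**Figure D3:**
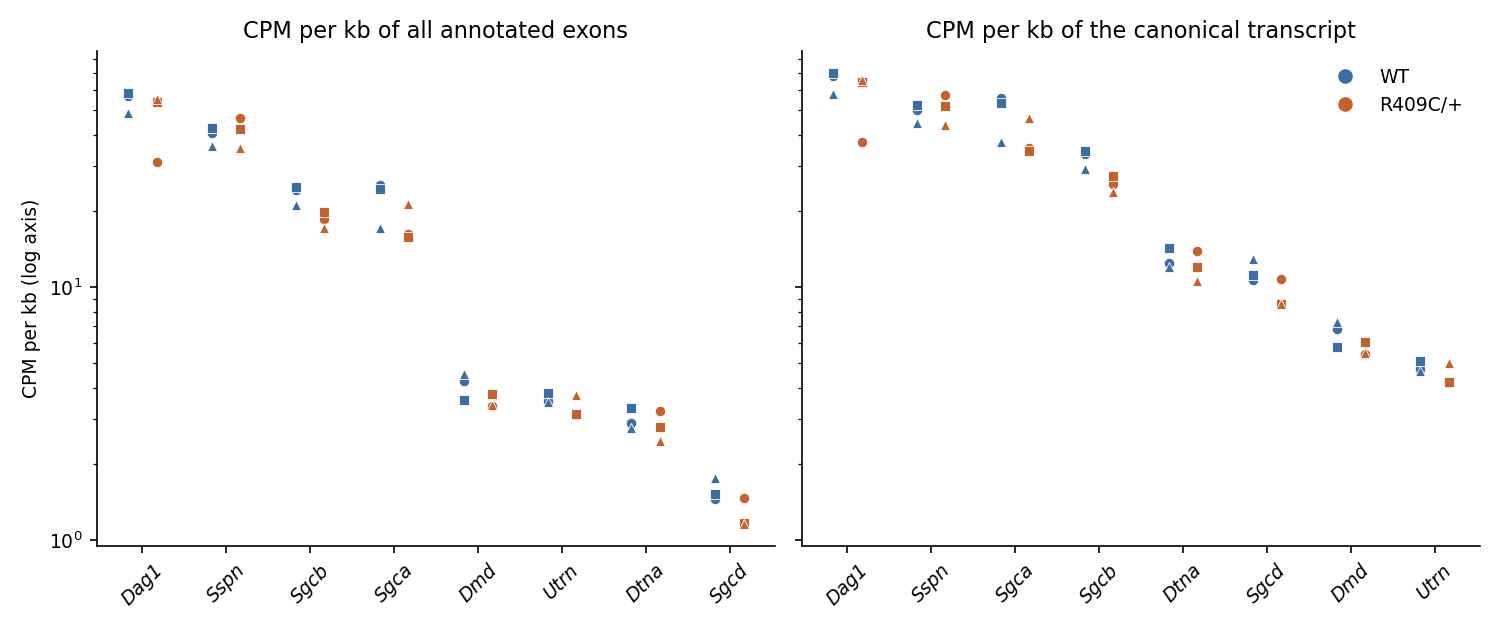
CPM per kb (vertical log axis) of the 8 genes in each WT (blue) and Lztr1 R409C/+ (orange) mouse, with the marker shapes of the replicates as before (circle, 1; square, 2; triangle, 3), over all annotated exons (left) and over the canonical transcript (right), each in order of the WT mean. Dag1 and Sspn have the highest WT means on both scales, and Sgcd and Dtna stand above Dmd and Utrn on the right but below them on the left.

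Of the other components of the complex, 8 of 11 genes had enough counts to be tested (not Sgcz, Sntg1, and Sntg2), 5 with higher and 3 with lower means in mutant mice. 0 passed the adjusted threshold and 0 an unadjusted p of 0.05 in edgeR's test. Sgce, ε-sarcoglycan, which is also made outside striated muscle and can take the place of α-sarcoglycan in a complex, had 9.67, 8.39, and 7.77 CPM in WT and 9.49, 11.0, and 10.3 CPM in mutant mice (log2 fold change 0.25, standard error 0.18, adjusted p = 0.741, edgeR). Cav3, muscle caveolin, had a log2 fold change of 0.22 (adjusted p = 0.771, edgeR), and Sntb1, a syntrophin, one of -0.19 (adjusted p = 0.883, edgeR).

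The ratio of Sgce to Sgca counts was the 1 of the 4 ratios that separated the genotypes. Per Sgca count there were 0.116, 0.105, and 0.139 Sgce counts in WT and 0.179, 0.211, and 0.147 in mutant mice, so every mutant mouse was above every WT mouse. On the log2 scale the WT mean was -3.07 ± 0.20 and the mutant mean -2.50 ± 0.26 (SD, n = 3 each), a difference of 0.57 or 1.49-fold. The two-sided exact permutation test gave p = 0.1, its lower limit for groups of this size. The p-values of the 4 ratios were not adjusted for their number. In the same test p was 0.2 without WT replicate 1, without WT replicate 2, and without mutant replicate 2, and 0.1 without any other mouse. The difference ranged from 0.44 to 0.71 when each mouse was left out in turn, and it was 0.78 with the gene length correction and 0.67 without both WT replicate 3 and mutant replicate 1. A ratio within a mouse does not depend on how the libraries were scaled. The part of cell composition in this ratio was not tested.

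**Figure D4:**
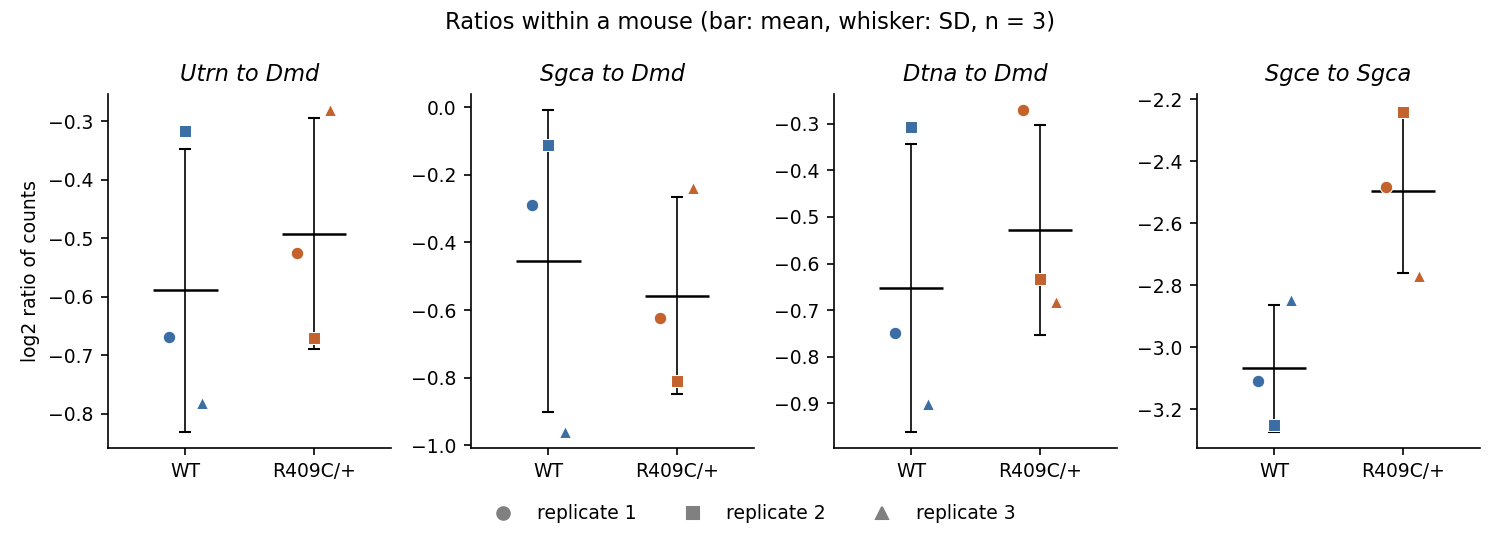
Log2 ratio of the counts of 2 genes in the same mouse (vertical axis, a different range in each panel and not from 0) for WT (blue) and Lztr1 R409C/+ (orange) mice, with bars for the mean and whiskers for the SD (n = 3). The groups overlap for Utrn to Dmd, Sgca to Dmd, and Dtna to Dmd, and lie apart for Sgce to Sgca.

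The ligands of dystroglycan in the basement membrane had 10 of 11 genes tested (not Lama1), 3 higher and 7 lower, with a median log2 fold change of -0.081, and 0 passed the adjusted threshold. Bgn, the proteoglycan biglycan, passed an unadjusted p of 0.05, with 177.4, 207.5, and 105.9 CPM in WT and 202.3, 241.8, and 265.5 CPM in mutant mice (log2 fold change 0.53, unadjusted p = 0.0374 and adjusted p = 0.554, edgeR). Its groups overlapped, and WT replicate 3 stood below the rest. Lama2, the α-chain of the main muscle laminin, had a log2 fold change of -0.26 (adjusted p = 0.715, edgeR), Lamb2, a β-chain, one of -0.44 (adjusted p = 0.587, edgeR), and Nid1, a laminin-binding linker, one of 0.20 (adjusted p = 0.855, edgeR).

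Of the enzymes that build the laminin-binding glycan on α-dystroglycan, 17 of 18 were tested, 7 higher and 10 lower, with a median of -0.054 and 0 past either threshold in edgeR's test. Pomgnt1, an early enzyme of the pathway, had 40.0, 38.1, and 31.7 CPM in WT and 45.2, 42.0, and 41.8 CPM in mutant mice, without overlap (log2 fold change 0.23, adjusted p = 0.711, edgeR). B4gat1, which adds a glucuronic acid to the growing glycan, had a log2 fold change of 0.47 (adjusted p = 0.625, edgeR).

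Cardiomyocytes also hold laminin through α7β1-integrin, which meets the complex at the costamere. All 15 genes of this linkage were tested, 3 higher and 12 lower, with a median of -0.20, close to that of the 8 members, and 0 passed either threshold in edgeR's test. Itga7, the α7-integrin, had 121.8, 114.7, and 115.7 CPM in WT and 63.1, 97.0, and 106.2 CPM in mutant mice, without overlap (log2 fold change -0.40, unadjusted p = 0.0583 and adjusted p = 0.598, edgeR). As for Dag1, the lowest value came from mutant replicate 1. Vcl, vinculin, had a log2 fold change of -0.43 (adjusted p = 0.708, edgeR), Ilk, integrin-linked kinase, one of 0.14 (adjusted p = 0.864, edgeR), and its partner Lims2 one of 0.056 (adjusted p = 0.950, edgeR).

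The 12 genes of sarcolemma repair divided into 5 higher and 7 lower, with a median of -0.046, and 0 passed the adjusted threshold. Myof, the ferlin myoferlin, passed an unadjusted p of 0.05, with 5.90, 6.43, and 6.21 CPM in WT and 8.39, 8.01, and 10.1 CPM in mutant mice, without overlap (log2 fold change 0.51, unadjusted p = 0.0177 and adjusted p = 0.488, edgeR). Dysf, dysferlin, its paralog that seals membrane wounds in muscle, was without overlap in the other direction, with 71.4, 79.6, and 72.6 CPM in WT and 48.9, 65.4, and 67.4 CPM in mutant mice (log2 fold change -0.30, adjusted p = 0.648, edgeR). Cavin4, a muscle caveolar protein, had a log2 fold change of -0.30 (adjusted p = 0.599, edgeR) and Anxa2, an annexin, one of 0.26 (adjusted p = 0.676, edgeR), both without overlap. Of the 70 genes tested among the 8 members and the 5 lists, 3 (Sgcb, Bgn, and Myof, 4.29%) passed an unadjusted p of 0.05 in edgeR's test, below the 8.63% of all genes tested. Without both WT replicate 3 and mutant replicate 1 this count was 8, where 1025 higher and 446 lower of all 17313 genes passed.

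Cell type markers were compared in the same libraries. The 10 cardiomyocyte markers summed to 42822 to 47372 CPM in WT and 32711 to 45341 CPM in mutant mice, lowest in replicate 1, and 7 of the 10 had lower means, with a median log2 fold change of -0.22, to 2 decimals that of the 8 members. All 9 macrophage markers had higher means in mutant mice, 8 without overlap and 2 (C1qb and C1qc) past the adjusted threshold of edgeR's test, and they summed to 202 to 239 CPM in WT and 353 to 453 CPM in mutant mice. All 5 erythroid markers had higher means (median log2 fold change 0.97, 3 past an unadjusted p of 0.05), with sums of 579 to 1479 CPM in WT and 1042 to 2625 CPM in mutant mice. Of the 8 fibroblast markers, 5 were higher and 3 of those (Lum, Tcf21, and Postn) passed an unadjusted p of 0.05. The 3 lower ones were Col1a1 (-0.25), Col1a2 (-0.073), and Col3a1 (-0.030). Of the 8 smooth muscle and pericyte markers 4 were lower, with Myh11 (-0.71) and Tagln (-0.65) past that p and without overlap. The 4 higher ones were Cnn1 (0.32), Kcnj8 (0.29), Cspg4 (0.20), and Pdgfrb (0.20). Of the 8 endothelial markers 6 were higher, and 1 of them, Emcn (0.40), passed that p without overlap (unadjusted p = 0.0311 and adjusted p = 0.535, edgeR). The 2 lower ones were Kdr (-0.24) and Flt1 (-0.10). None of these erythroid, fibroblast, smooth muscle, or endothelial genes passed the adjusted threshold in edgeR's test. Over all genes tested, 5.77% were higher and 2.86% lower at an unadjusted p of 0.05 in that test, and 0.0407% passed the adjusted threshold. Every mutant mouse was above every WT mouse for 8.3% of all genes and below for 7.23%. The summed markers of these lists and of atrial, skeletal muscle, and Schwann cells overlapped between the genotypes. When the libraries were scaled to the cardiomyocyte markers, the median of all genes moved to 0.22, and the log2 fold changes of the members were -0.012 for Dmd, 0.083 for Utrn, -0.056 for Dag1, -0.13 for Sgca, -0.12 for Sgcb, -0.094 for Sgcd, 0.29 for Sspn, and 0.15 for Dtna. This scaling moves all genes by about the same amount, and relative to the median of all genes the median of the 8 members was -0.23 in the reported fit and -0.25 on this scale. With the correction for gene length this offset was -0.14, and it was also -0.14 with that correction and the replicate block. The part of these cell types in the members' lower values was not tested.

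**Figure D5:**
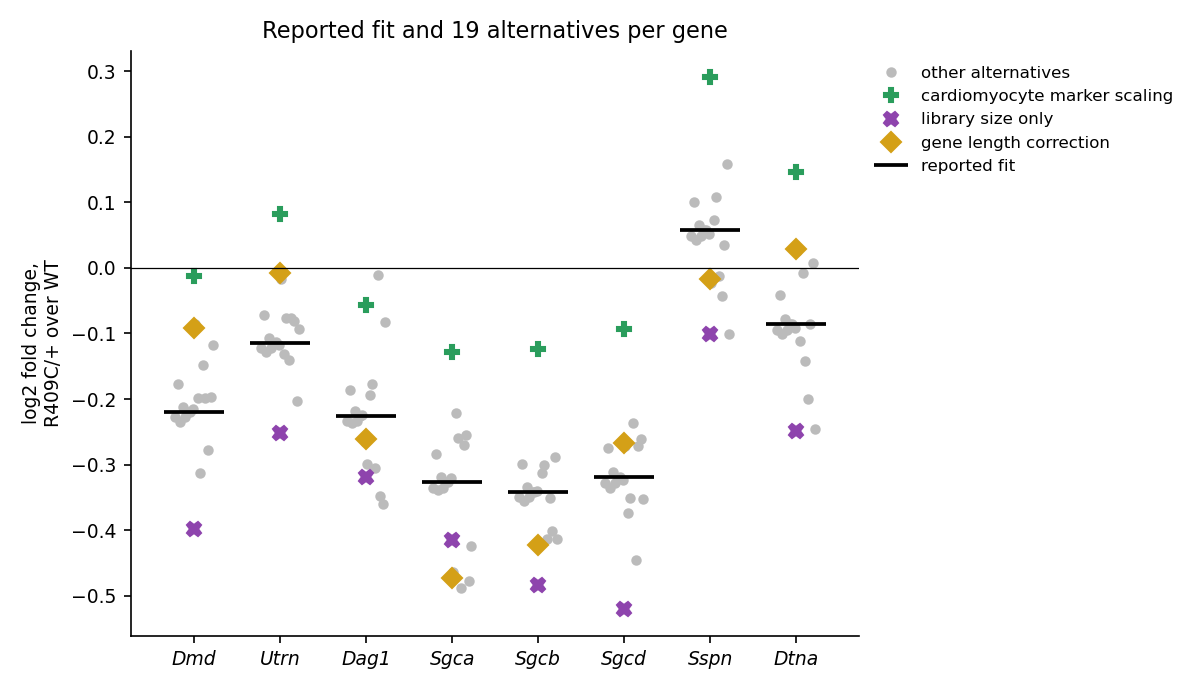
Log2 fold change of each of the 8 genes (vertical axis) in the reported fit (black bar) and in 19 alternatives (points), with the cardiomyocyte marker scaling, the library size scaling, and the gene length correction in color. Dmd, Dag1, and the 3 sarcoglycans stay below 0 in all of them, whereas Utrn, Sspn, and Dtna have values on both sides. Utrn is above 0 only with the cardiomyocyte marker scaling, where the median of all genes was 0.22. With the gene length correction that median was -0.038, and Utrn (-0.0085), Sspn (-0.016), and Dtna (0.029) lie above it.

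Across the 6 mice, the log2 CPM of Dmd was most like that of Ccdc47 (Pearson's r = 0.98), Fbxo32 (0.96), and Arrdc3 (0.96) among 3527 well-expressed genes. Ccdc47 encodes a protein of the endoplasmic reticulum and Fbxo32 the muscle ubiquitin ligase atrogin-1. Within the complex, the r with Dmd was 0.58 for Sgcd, 0.50 for Sgcb, 0.31 for Dag1, 0.044 for Sgca, 0.038 for Utrn, -0.15 for Dtna, and -0.40 for Sspn. 871 of the 3527 genes were more like Dmd than Sgcd was, so no member stood out among genes by its likeness to dystrophin. The highest r among the other pairs was 0.82 for Sspn with Dtna and 0.81 for Utrn with Sgca. These values describe 6 mice of both genotypes that share their libraries and their scaling, and they carry no test.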

How the data were processed

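RNA from the LVs of 3 WT and 3 Lztr1 R409C/+ mice was sequenced after preparation with a NEBNext Ultra II kit, whose use of strand is not stated. The authors trimmed reads with Trim Galore, aligned them to GRCm39 with HISAT2, excluded rRNA, and used StringTie and edgeR. Versions and the annotation release are not given in the sources used here. The deposited values used are raw counts, a whole number for each gene and mouse. A second deposited table holds the authors' own comparison for 12629 genes, with log2 fold changes and average log2 CPM. It also holds the p-values deposited by the authors and their adjusted values, and only its gene names were used. Gene identifiers were matched without version, and 56236 of 56923 were in GENCODE M39, which gave positions and lengths.

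Genes were filtered with filterByExpr, scaled by TMM, and tested with edgeR 4.0.16 (R 4.3.3, robust quasi-likelihood, 2-sided, Benjamini-Hochberg adjustment over all 17212 genes tested, threshold 0.05). Replicates are mice by the labels, which do not state their litters, and p-values measure the spread between these mice. The common biological coefficient of variation was 26.1%. Intervals and floors of counts cover counting error only, except those of fold changes. Ratios were compared by an exact permutation test over all splits of the mice (Python 3.11.15). When this comparison was simulated with a log2 change of 1 in 200 of 17212 genes, the quasi-likelihood test found 38 of the 200 and called 3 others. The members and lists were chosen with earlier results of these data known. Genes were named by rule, as the 8 members, Lztr1, for each list the 2 genes of smallest p in each direction, and the 3 genes most like Dmd in log2 CPM among those with a mean of at least 5. 3 genes that this rule selects from the lists are not reported here. Markers of atrial and skeletal muscle were named after their values were seen. So were C1qb, C1qc, Lum, Tcf21, Postn, Col1a1, Col1a2, Col3a1, Emcn, Kdr, Flt1, Myh11, Tagln, Cnn1, Kcnj8, Cspg4, and Pdgfrb. Marker lists covered cardiomyocytes, macrophages, fibroblasts, endothelial, smooth muscle, erythroid, skeletal muscle, atrial, and Schwann cells. Alternatives were other scalings (DESeq2 size factors, library size, upper quartile, cardiomyocyte markers), filters, and tests (DESeq2 1.42.0, edgeR's exact test), removal of mitochondrially encoded genes, a replicate block, a loess correction for gene length, and the omission of each mouse. The omission of WT replicate 3 together with Lztr1 R409C/+ replicate 1 was added after the data were seen. Genes on the opposite strand overlap exons of Dmd, Utrn, Sspn, and Dtna by 62 to 248 bases, and their reads cannot be told apart without strand.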

Additional observations from a re-analysis of the deposited data

How the results depend on the processing

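Of 152 log2 fold changes of the 8 members under alternatives, 141 kept their direction and 11 turned, and 0 passed the adjusted threshold (adjusted p from 0.444 to 0.998, edgeR and DESeq2). Turns under cardiomyocyte marker scaling and library size only came with a move of all genes (medians 0.22 and -0.14). Relative to these medians Utrn and Dtna stayed lower and Sspn higher. With the length correction the median of all genes was -0.038, and with the block and that correction it was -0.041. Relative to these 2 medians Sspn stayed higher, but Utrn and Dtna were higher too. Dtna turned to 0.15 with cardiomyocyte marker scaling, 0.029 with the length correction, and 0.026 with the replicate block and that correction, and it ranged from -0.20 to 0.0073 when single mice were left out. Sspn turned to -0.10 with library size only, -0.016 with the length correction, -0.024 with the block and that correction, and -0.10 without both WT replicate 3 and mutant replicate 1, and it ranged from -0.043 to 0.16 without single mice. Utrn turned to 0.083 with cardiomyocyte marker scaling. Without single mice, the ratio of Dtna to Dmd ranged from -0.0051 to 0.30 (-0.13 without the 2 mice named above), that of Sgca to Dmd from -0.36 to 0.068, and that of Utrn to Dmd from -0.0095 to 0.23. The number of members at an unadjusted p of 0.05 was 0 without WT replicate 1 or 2, 2 without WT replicate 3 (Sgca and Sgcb), and 1 without any 1 of the mutant mice, which was Sgcd without replicate 1, Sgcb without replicate 2, and Sgca without replicate 3 (edgeR). Each of these members was lower. Over all genes, those lower at this p numbered 372 of 17899 without WT replicate 1, 336 of 17953 without replicate 2, and 389 of 17716 without replicate 3. Without mutant replicates 1, 2, and 3 they numbered 488 of 17879, 531 of 17878, and 508 of 17839, respectively. The number of members was also 0 with library size only, upper quartile, cardiomyocyte marker scaling, at least 10 counts in every mouse, edgeR's exact test, and the replicate block, and 2 (Sgca and Sgcb, both lower) with the length correction. Of 17212 genes, those lower at this p numbered 301 with library size only, 305 with upper quartile, and 51 with cardiomyocyte marker scaling. They numbered 473 with the exact test, 324 with the block, and 715 with the length correction. With at least 10 counts in every mouse they numbered 432 of 15159. With library size only, all 8 members were below 0. The causes were not tested.

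Counts of genes past the adjusted threshold, 6 higher and 1 lower over all genes, were 15 and 6 with library size only, 19 higher without a filter, 0 lower with at least 10 counts in every mouse, 143 and 15 with DESeq2, and 124 and 13 with edgeR's exact test. The higher genes were 1 with the length correction, 0 with the block and that correction, and 0 without the 2 mice, and without single mice the counts ranged from 1 to 3 higher and from 1 to 2 lower. The 3 members and list genes at an unadjusted p of 0.05 became 0 with library size only, 6 with cardiomyocyte marker scaling, 5 without a filter, 5 with DESeq2, 6 with the length correction, 8 without the 2 mice, and 0 to 6 without single mice. Over all genes, 993 higher and 493 lower of 17212 passed that p in the reported fit. The same 17212 genes gave 388 and 301 with library size only and 1854 and 51 with cardiomyocyte marker scaling. They gave 1034 and 550 with DESeq2 and 705 and 715 with the length correction. The counts were 1226 and 729 of 27480 without a filter and 1025 and 446 of 17313 without the 2 mice.

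The labels of both genotypes share the replicate numbers, and no pairing of same-numbered mice was seen. Their deviations correlated at -0.0013, 0.022, and -0.057 over genes, against -0.050 to 0.048 for mice of unlike number. Such correlations cannot show whether mice shared a litter or a batch, which was not tested. With the replicate block, the higher genes fell to 0, Sgcb was at -0.34 (adjusted p = 0.723, edgeR) and lost its unadjusted call, and no member changed direction.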
